A study of Rattus norvegicus with 4 samples.

Results

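The respiratory chain and the ATP synthase of the rat left ventricle were followed through 56 genes, of 4736 genes that the array measured under a single gene symbol. They were taken by name: every probe set whose only platform symbol begins with Nduf, Sdh, Uqcr, Cox4 to Cox8 or Atp5, or is Cycs or Cyc1, which gave 102 of 7006 probe sets. Where a gene had several probe sets, the brightest on average over the 4 arrays stood for it. By symbol, 27 genes belong to complex I, 2 to complex II, 4 to complex III, 13 to complex IV and 10 to complex V, and no probe set carried Cycs. Of the 56 genes, 55 lay above the intensity floor of 26.0 on all 4 arrays, and the remaining one, the pseudogene Cox6c-ps1, lay under it on all 4 and enters no count. The names also brought in 4 genes that are not structural subunits: the assembly factors Ndufaf3 and Sdhaf2, the ATP synthase inhibitor Atp5if1, and Cox7a2l, a factor of supercomplex assembly. Ndufa4l2, a relative of Ndufa4, was counted by its name with the subunits of complex I.

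The study hybridised total RNA of the left ventricle to 4 arrays of the Affymetrix rat genome type, 1 array for each of 4 groups, to follow hypertensive heart disease and its treatment. SD control is the Sprague Dawley control rat. dTGR are rats that overexpress human renin and human angiotensinogen and become hypertensive with an enlarged heart, and losartan-treated dTGR are such rats given losartan, a blocker of the angiotensin II receptor. The group labelled terminal heart failure names no genotype in its title. All 4 samples, the control too, carry the same description of the transgenic rat. The sources used here do not give ages, sexes, doses, the transgenes' promoters, the number of animals behind an array or whether RNA was pooled. With 1 array per group there is no spread between animals, so every difference below is a difference between 2 arrays and carries no test.

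The respiratory chain passes electrons from NADH at complex I and from succinate at complex II through complex III and cytochrome c to oxygen at complex IV, and the proton gradient that complexes I, III and IV build drives ATP synthesis by complex V. The heart renews its ATP mostly this way, and its mitochondria fill much of the cardiomyocyte. Most subunits are encoded in the nucleus, while the catalytic core of complex IV and a few other subunits are encoded in mitochondrial DNA. Several subunits of complex IV exist as a broadly expressed form and a heart and skeletal muscle form, such as Cox6a1 and Cox6a2, or Cox8a and Cox8b.

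The stretches of 250 bases before the annotated start of 6 members are shown because these genes carry the results below: Ndufb3, Ndufb10 and Uqcrc2 were the members furthest below the losartan-treated array on the terminal array, and Cox6a2 and Cox8b are the muscle forms of complex IV subunits, with Cox8a as the broadly expressed counterpart. The sequences are from RefSeq, build GRCr8, written on the gene's strand from 5' to 3', with the letters of the motifs searched in capitals. The window of Cox6a2 begins from a start that lies inside the gene's annotated span.
Ndufb3, chr9:67623167-67623416, plus strand: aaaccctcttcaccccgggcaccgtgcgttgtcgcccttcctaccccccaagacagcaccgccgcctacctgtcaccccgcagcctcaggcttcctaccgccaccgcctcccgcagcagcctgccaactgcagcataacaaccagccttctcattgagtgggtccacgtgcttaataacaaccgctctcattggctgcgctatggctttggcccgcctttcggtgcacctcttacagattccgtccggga
Ndufb10, chr10:14255967-14256216, minus strand: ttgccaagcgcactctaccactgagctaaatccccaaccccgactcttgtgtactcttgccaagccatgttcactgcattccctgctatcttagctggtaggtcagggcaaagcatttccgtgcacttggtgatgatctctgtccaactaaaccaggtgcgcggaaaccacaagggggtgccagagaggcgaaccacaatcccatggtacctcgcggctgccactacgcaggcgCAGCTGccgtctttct
Uqcrc2, chr1:184598990-184599239, plus strand: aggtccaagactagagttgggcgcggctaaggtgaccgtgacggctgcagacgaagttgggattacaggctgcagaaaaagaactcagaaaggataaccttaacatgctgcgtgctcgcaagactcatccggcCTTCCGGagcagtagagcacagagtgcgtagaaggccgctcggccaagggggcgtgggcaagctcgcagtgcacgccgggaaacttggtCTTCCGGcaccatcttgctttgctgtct
Cox6a2, chr1:192219717-192219966, minus strand: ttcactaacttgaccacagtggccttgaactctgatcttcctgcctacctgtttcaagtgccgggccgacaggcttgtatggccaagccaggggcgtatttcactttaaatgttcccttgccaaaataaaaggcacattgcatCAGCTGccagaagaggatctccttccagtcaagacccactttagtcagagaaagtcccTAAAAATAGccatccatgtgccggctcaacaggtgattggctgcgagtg
Cox8a, chr1:213833624-213833873, minus strand: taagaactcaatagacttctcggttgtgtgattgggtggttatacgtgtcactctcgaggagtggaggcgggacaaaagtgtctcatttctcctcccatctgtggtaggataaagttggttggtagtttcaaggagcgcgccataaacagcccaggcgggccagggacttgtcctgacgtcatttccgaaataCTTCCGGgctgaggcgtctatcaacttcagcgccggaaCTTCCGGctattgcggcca
Cox8b, chr1:205408274-205408523, minus strand: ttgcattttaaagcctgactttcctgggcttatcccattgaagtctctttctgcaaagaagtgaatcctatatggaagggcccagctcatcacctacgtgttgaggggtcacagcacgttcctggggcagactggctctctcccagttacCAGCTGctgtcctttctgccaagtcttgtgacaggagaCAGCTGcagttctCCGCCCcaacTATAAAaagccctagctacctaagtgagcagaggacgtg

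Such a window was found for 47 of the 56 members, and 7 motifs were searched on both strands in these and in all 33469 windows of the reference. The motifs of different names may overlap each other. The core letters of ETS factors, CCGGAAG or their complement CTTCCGG, stood in 9 of 47 member windows (19.1%) and in 7.27% of all windows. Uqcrc2 and Cox8a each held 2 copies, beginning 117 and 28 bases before the start of Uqcrc2 and 57 and 19 bases before that of Cox8a. The letters of the Sp1 core, GGGCGG, stood in 17 member windows (36.2%, against 30.5% of all), and those of the E-box CAGCTG in 8 (17.0%, against 12.0%).

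Both muscle forms differed from Cox8a in these letters. Cox6a2 held the MEF2 letters TAAAAATAG beginning 49 bases before the start, as the only member with them (0.463% of all windows), and an E-box at 107 bases. Cox8b held E-boxes at 100 and 62 bases and the TATA letters TATAAA at 39 bases, found in 2 member windows and in 12.9% of all. The NRF1 letters GCGCATGCG stood in 1 member window, that of Atp5po (1.35% of all), and TCAAGGTCA of the oestrogen-related receptors in 0 (0.388% of all). Ndufb3 held none of the 7 motifs as searched in this window, and Ndufb10 held the E-box letters CAGCTG at 16 bases. Other forms of the E-box were not searched, so their absence is not shown. A match here says only that the letters are present.

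The arrays were on a common scale as deposited, with trimmed mean intensities from 200.2 to 200.3 and 58.2% to 63.5% of probe sets above the floor. They also differed in measures of the array as a whole, which with 1 array per group cannot be told apart from the group. The 100 most intense probe sets held 46.3% of the signal of the dTGR array and 31.8% to 36.9% on the others, and the dTGR array was alone in its fluidics protocol. SD control and dTGR shared a chip lot, losartan-treated and terminal shared another, and the terminal array had a separate run day. Ratios of the 3' to the 5' signal of Gapdh, a measure of RNA integrity and labelling, were 1.35, 1.73, 2.17 and 1.28 for SD control, dTGR, losartan-treated and terminal. Of the tissue markers, 8 of 8 for cardiomyocytes lay above the floor on all 4 arrays. Among atrial markers the light chain Myl4 lay above it on 1 array, while Myl7 lay above it on all 4, with 102.9 in SD control, 118.2 in dTGR, 64.9 in losartan-treated dTGR and 183.1 in terminal heart failure. Of 7 skeletal muscle markers, Myh2, Myh4 and Tnni2 lay under the floor on all 4 arrays, and 3 lay above it on all 4, among them Myh1, with 64.6 to 131.7, and Myl1, which lay close to the floor in SD control and under losartan. The disease marker Nppa, atrial natriuretic peptide, had intensities of 1758 in SD control, 22034 in dTGR, 5402 in losartan-treated dTGR and 11730 in terminal heart failure.

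By the medians of the probe sets used, transcripts of the respiratory chain and the ATP synthase were lowest on the terminal heart failure array. They were highest on the losartan-treated array. The widest gap was between these arrays: 49 of 55 members were lower on the terminal array than on the losartan-treated array (89.1%, against 58.2% of all genes above the floor), with a median log2 difference of -0.46 (1 is a 2-fold difference) against -0.12 for all genes. The 6 members that were higher on the terminal array (against 41.8% of all genes) were Cox5a, Atp5f1d, Cox6c, Atp5if1, Ndufb1 and Ndufb2. Bright genes in general ran the same way to a smaller extent. Among genes with a mean intensity of 1000 or more, 91.5% of 47 members and 63.9% of 291 other genes were lower on the terminal array, with median log2 differences of -0.46 and -0.18.

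Against SD control the 2 arrays lay on opposite sides. On the terminal array 44 of 55 members were lower than in SD control (80%, against 60.1% of all genes) and 11 higher (20%, against 39.9%), with a median log2 difference of -0.22 against -0.14. On the losartan-treated array 42 of 55 were higher than in SD control (76.4%, against 49.8% of all genes) and 13 lower (23.6%, against 50.2%), with a median of 0.27 against 0.00. That median was 0.13 against 0.04 with quantiles and 0.15 against 0.05 with cyclic loess, and of the other genes of mean intensity 1000 or more 36.8% were lower as deposited, with a median of 0.12. The terminal array lay under and the losartan-treated array over SD control for the same gene in 31 members (56.4%, against 25% of 2584 genes above the floor on all 4 arrays). These comparisons share the SD control array, and the last one was drawn up after the values had been seen.

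The dTGR array had no settled place among the others. Of 55 members, 34 were higher there than in SD control (61.8%, against 52.2% of all genes) and 21 lower (38.2%, against 47.8%), and the median log2 difference was 0.13 against 0.03. With the arrays scaled to the same median, quantile normalised or fitted by cyclic loess, the median turned to -0.11, -0.10 and -0.08. The median of all genes was -0.19, 0.00 and 0.03 in these settings. Members thus lay above all genes with the same median and below them with quantiles and cyclic loess. Under all 4 scalings 19 members were lower and 12 higher on the dTGR array, and the other 24 changed direction between scalings. Terminal against dTGR gave 45 members lower (81.8%, against 60% of all genes) and 10 higher (18.2%, against 40%), with a median of -0.33 against -0.18, and its median stayed under 0 in every scaling but came as near as -0.04. Losartan-treated against dTGR gave 32 members higher (58.2%, against 47% of all genes) and 23 lower (41.8%, against 53%), with a median of 0.09 against -0.05, which ran up to 0.33 with the same median.

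**Figure D1:**
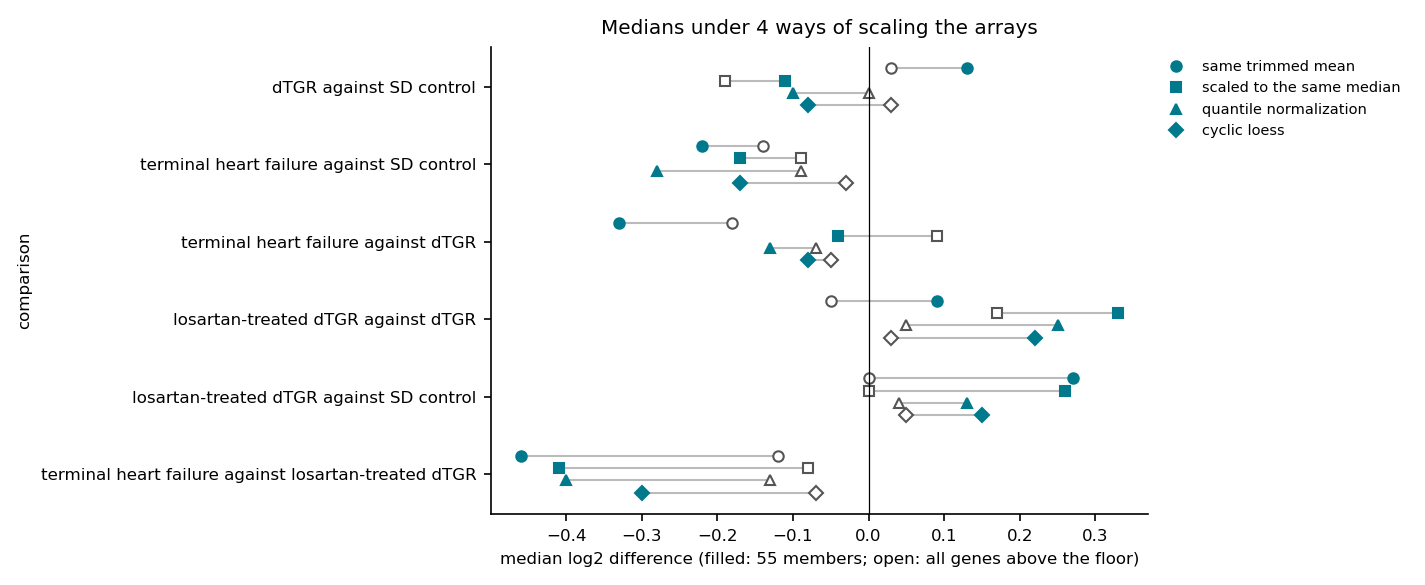
Median log2 difference (horizontal axis, 1 is 2-fold) of the 55 members, filled marks, and of all genes above the floor, open marks, in each of 6 comparisons (vertical axis) under 4 scalings of the arrays, shown by the shape of the mark. In terminal heart failure against losartan-treated dTGR the members lie at -0.46 to -0.30 and under all genes in every scaling, whereas in dTGR against SD control they lie at 0.13 in 1 scaling and between -0.11 and -0.08 in the other 3.

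The plot of difference against level shows where the dTGR array parted from SD control. Of the 17 members with a mean intensity of 5000 or more, 16 were higher on the dTGR array (94.1%, against 52.2% of all genes). Their median log2 difference was 0.28. Among the 38 dimmer members, 18 were higher (47.4%) and 20 lower (52.6%), and the median was -0.05. Genes of mean intensity 1000 or more that are no members ran the same way, with a median of 0.10 over 291 genes beside 0.13 over 47 members. In terminal against losartan-treated dTGR all 17 bright members and 32 of the 38 dimmer ones (84.2%) were lower on the terminal array, with medians of -0.48 and -0.45. Beside this, 58.2% of all genes and 63.9% of the 291 other genes of mean intensity 1000 or more were lower.

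**Figure D2:**
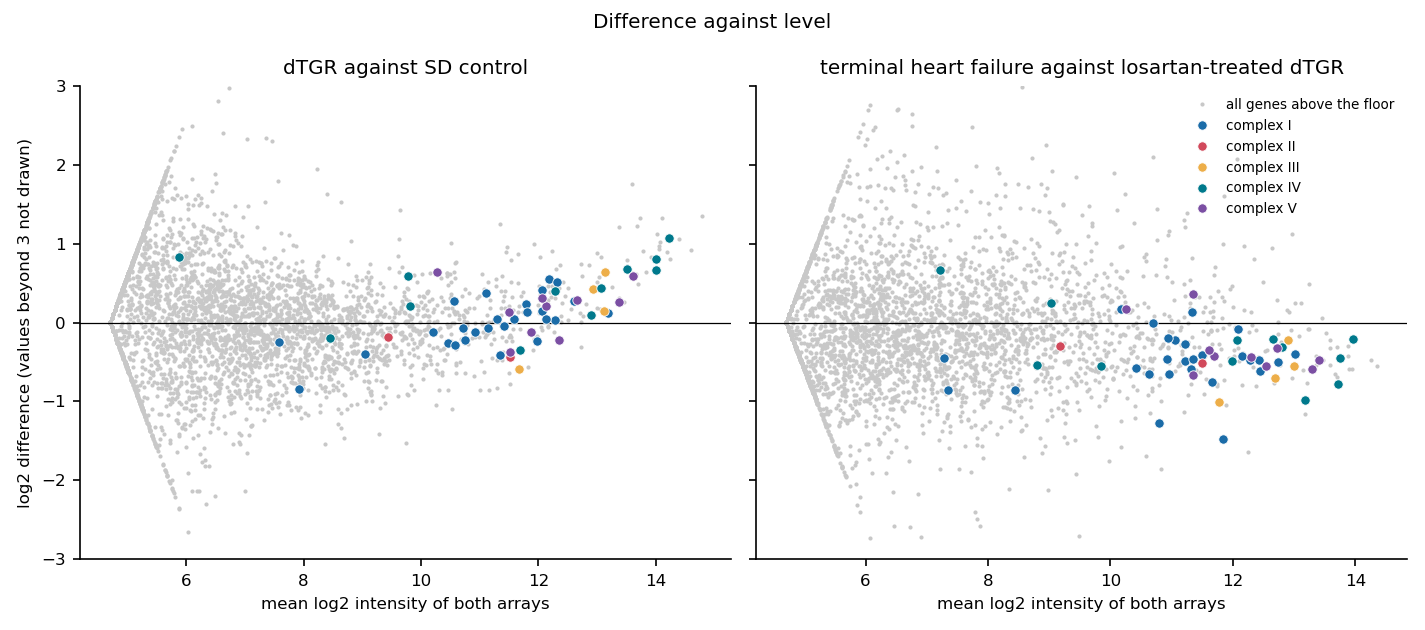
Log2 difference between 2 arrays (vertical axis) against the mean log2 intensity of both (horizontal axis), with all genes above the floor in grey and the members coloured by complex. On the left, dTGR against SD control, bright genes of both kinds bend upward and the members follow them, and this bend flattens under quantile normalisation or cyclic loess. On the right, terminal heart failure against losartan-treated dTGR, the members form a band under 0 at nearly every level, with 49 of 55 lower.

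Ranking the 4 arrays for each gene also put the terminal array at the bottom. It was the lowest of the 4 for 34 of 55 members (61.8%, against 37.5% of 2584 genes), for 27 with the same median (49.1%, against 27.8%), 32 with quantiles (58.2%, against 35.4%) and 23 with cyclic loess (41.8%, against 31.8%). The terminal array was the lowest in all 4 scalings at once for 21 members (38.2%, against 25.5% of 2549 genes). The losartan-treated array was the highest for 29 members (52.7%, against 25.6%), and in all 4 scalings at once for 25 (45.5%, against 22.7%). The dTGR array was the lowest for 7 members (12.7%, against 24.4%) as deposited, 17 with the same median (30.9%, against 41.1%), 13 with quantiles (23.6%, against 26.2%) and 20 with cyclic loess (36.4%, against 25.5%). The terminal array was the highest for 1 member, Cox5a (1.82%, against 21.5% of all genes), and for 3 in each other scaling. On the scale as deposited 14 of 55 members (25.5%) lay on both untreated disease arrays under both SD control and losartan-treated dTGR, beside 24.3% of all genes. This share depended on the scaling: it was 43.6% of members against 30.8% of all genes with the same median, 45.5% against 25.1% with quantiles and 36.4% against 22.3% with cyclic loess.

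**Figure D3:**
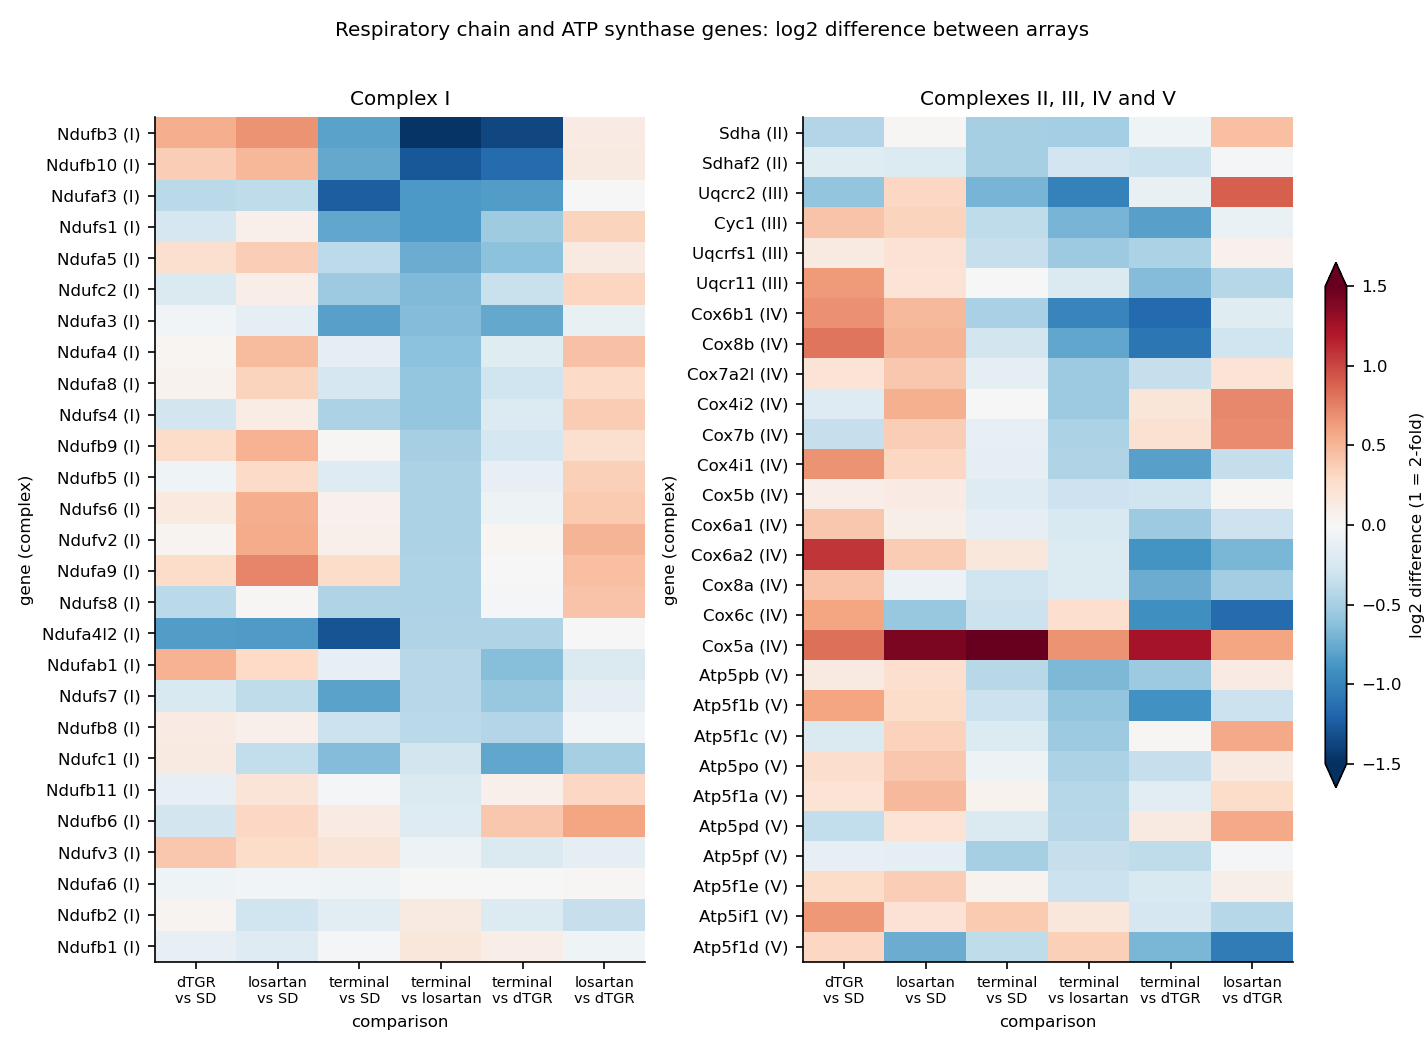
Log2 difference (colour, red higher and blue lower in the array named first, 1 is 2-fold, colours end at 1.5) of the 55 members (rows, with their complex) in 6 comparisons (columns) on the scale as deposited. The column of terminal against losartan-treated is blue for 49 of 55 members, while the column of dTGR against SD control is mixed, and its median changes sign in 3 other scalings.

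Few members passed a 2-fold difference, and their share was at or below that of all genes in every comparison. In terminal against losartan-treated dTGR 3 members were at least 2-fold lower (5.45%, against 7.35% of all genes) and 0 higher (against 7.44%). In terminal against SD control 2 were lower (3.64%, against 8.4%) and 1 was higher (1.82%, against 6.38%). In terminal against dTGR 4 were lower (7.27%, against 11.8%) and 1 higher (1.82%, against 7.69%). The dTGR array had 1 member at least 2-fold above SD control (1.82%, against 7.69%) and 0 below (against 5.87%). The losartan-treated array had 0 members at least 2-fold above dTGR (against 5.9%) and 2 below (3.64%, against 9.5%), and 1 above SD control (1.82%, against 2.24%) and 0 below (against 4.86%). At 1.5-fold the terminal array had 14 members lower than losartan-treated dTGR (25.5%, against 22.4%) and 1 higher (1.82%, against 16.1%), 9 lower than SD control (16.4%, against 22%) and 1 higher (against 13.7%), and 17 lower than dTGR (30.9%, against 27.4%) and 1 higher (against 16.1%). The dTGR array had 9 members higher than SD control by this measure (16.4%, against 18.5%) and 2 lower (3.64%, against 16%). The losartan-treated array had 5 higher than dTGR (9.09%, against 16.8%) and 3 lower (5.45%, against 22.3%), and 3 higher than SD control (5.45%, against 9.63%) and 2 lower (3.64%, against 13.1%). At either fold the share of members was thus near the background or below it, and the gap between members and all genes lay in the direction of differences, most of them smaller than 1.5-fold.

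Complex I oxidises NADH. Of the 27 members named for it, 25 were lower on the terminal than on the losartan-treated array (92.6%, against 58.2% of all genes). The median log2 difference was -0.48 (-0.48 to -0.37 over the 4 scalings). The 27 include Ndufaf3, Ndufa4 and its relative Ndufa4l2, which are described below. Against SD control 21 of 27 were lower on the terminal array (77.8%, against 60.1% of all genes), with a median of -0.25 (-0.33 to -0.20). On the losartan-treated array 19 of 27 were higher than in SD control (70.4%, against 49.8%), with a median of 0.19 (0.16 to 0.19). On the dTGR array 14 were higher (51.9%, against 52.2% of all genes) and 13 lower (48.1%, against 47.8%) than in SD control. The median was 0.03 as deposited and lay between -0.21 and -0.11 in the other scalings.

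The members furthest apart between the terminal and losartan-treated arrays were 2 accessory subunits of the membrane arm of complex I. Ndufb3 had intensities of 3828 in SD control, 5623 in dTGR, 6089 in losartan-treated dTGR and 2195 in terminal heart failure. The terminal array stood alone at the bottom, 2.77-fold under the losartan-treated array, 2.56-fold under dTGR and 1.74-fold under SD control, and it was the lowest in all 4 scalings. Ndufb10 had 1939, 2516, 2745 and 1135 in the same order of arrays, 2.42-fold lower on the terminal array than on the losartan-treated array and 1.71-fold lower than in SD control. Its log2 difference between the terminal and losartan-treated arrays lay between -1.29 and -1.22 over the 4 scalings. Each of the 2 genes has 1 probe set, so neither has a second reading on these arrays.

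Between the terminal array and SD control, subunits of the matrix arm, which holds the flavin and the iron-sulphur clusters, ran from a clear gap to none. Ndufs1, the largest iron-sulphur subunit, had 208 in SD control, 175 in dTGR, 220.1 in losartan-treated dTGR and 121.5 in terminal heart failure, with the terminal array 1.71-fold under SD control. Ndufs7, the subunit that hands electrons to ubiquinone, had 4345, 3701, 3330 and 2496 in that order. It was highest in SD control and 1.74-fold lower on the terminal array, and the losartan-treated array lay 1.3-fold under SD control, unlike most of the complex. Ndufv2, of the NADH-oxidising end, had 4435, 4569, 6523 and 4672, so that SD control, dTGR and terminal lay close together. The losartan-treated array was 1.47-fold above SD control and 1.4-fold above the terminal array.

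Further accessory subunits of complex I ran from no gap to a clear one. Ndufa9, which sits where the arms meet, had 1373 in SD control, 1665 in dTGR, 2279 in losartan-treated dTGR and 1654 in terminal heart failure. SD control was its lowest array in all 4 scalings, and the losartan-treated array was 1.66-fold above it. Ndufa6, an accessory subunit, had 1723, 1649, 1671 and 1657. By this probe set and as deposited it was the steadiest member, with no comparison beyond 1.05-fold. A weaker probe set of Ndufa6, described below, was 3.2-fold higher on the terminal array than in SD control. Ndufb1 and Ndufb2 were the complex I members that were higher on the terminal array than on the losartan-treated array, by 1.12-fold and 1.1-fold. Ndufa3, an accessory subunit, had 2761, 2681, 2482 and 1577, with the 3 other arrays close together and the terminal array 1.75-fold under SD control.

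The members furthest below SD control on the terminal array were a paralogue and an assembly factor. Ndufa4l2, a relative of Ndufa4 known to be induced by low oxygen, had 325.6 in SD control, 181.6 in dTGR, 181.2 in losartan-treated dTGR and 133 in terminal heart failure. SD control was the highest array and the terminal array 2.45-fold below it, and 4 other probe sets of the gene gave log2 differences of -1.58 to -1.27 against -1.29. Ndufaf3, an assembly factor, had 608.7, 462.5, 466.8 and 257.7, 2.36-fold lower on the terminal array than in SD control. By its 2 further probe sets the log2 difference was -0.79 and -0.52, and by the main one -1.24. Ndufa4 itself, named for complex I and now assigned to complex IV, had 4948, 5057, 6873 and 4469, with only the losartan-treated array standing apart, 1.39-fold above SD control.

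**Figure D4:**
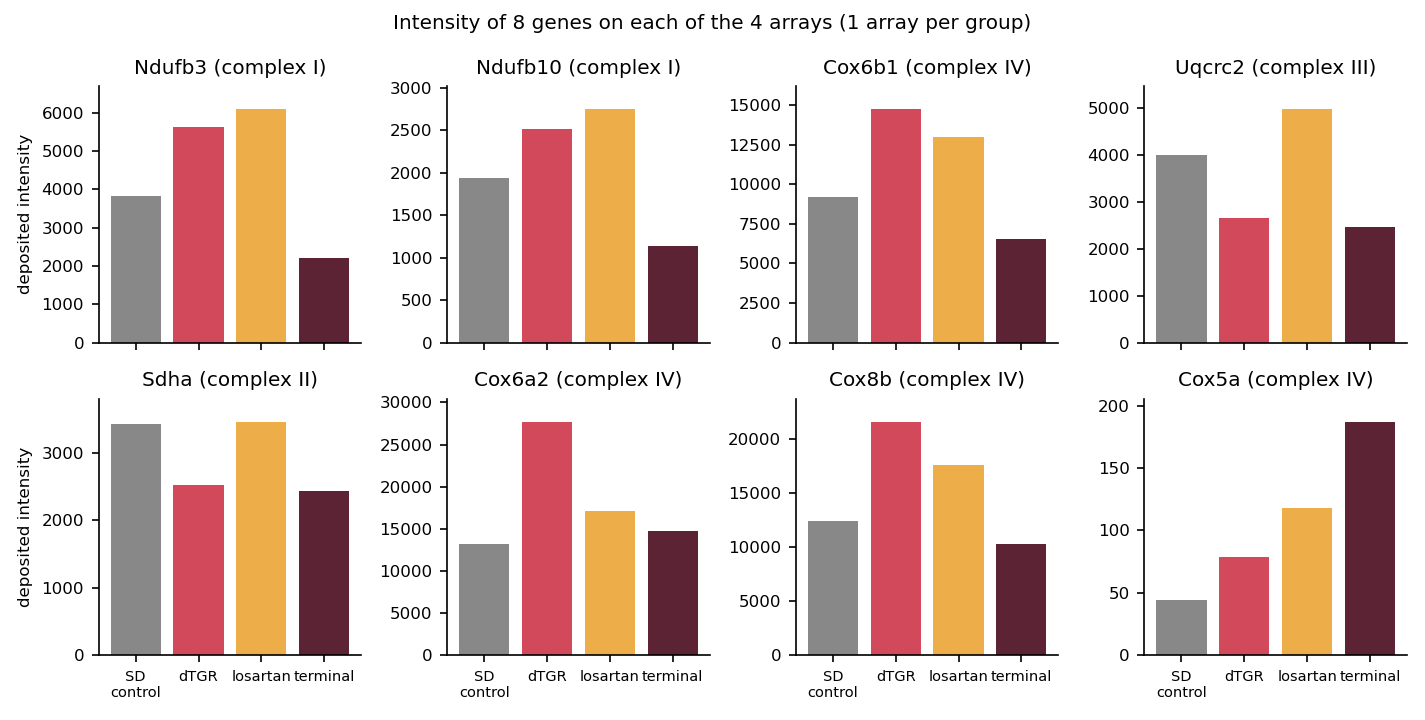
Deposited intensity (vertical axis, linear from 0, own scale in each panel) of 8 members on the 4 arrays (horizontal axis), 1 bar per array with no replicates. Ndufb3, Ndufb10 and Cox6b1 are lowest on the terminal array, Cox6b1 only by the probe set drawn. Uqcrc2 and Sdha are low on both dTGR and terminal. Cox6a2 and Cox8b peak on the dTGR array here but not with quantiles or cyclic loess. Cox5a climbs from 44.2 in SD control to 187 in terminal heart failure.

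Complexes II and III each held a member that was lower on both untreated disease arrays than in SD control and under losartan. Sdha, the flavoprotein of succinate dehydrogenase and also an enzyme of the tricarboxylic acid cycle, had 3420 in SD control, 2525 in dTGR, 3457 in losartan-treated dTGR and 2424 in terminal heart failure. The untreated disease arrays lay together at the bottom, 1.36-fold and 1.41-fold under SD control, and the losartan-treated array lay 1.01-fold from SD control. The log2 difference of dTGR from SD control was -0.68 to -0.44 over the 4 scalings. Sdhaf2, which helps attach flavin to Sdha, had 738.6, 652.2, 639.2 and 522, highest in SD control and 1.41-fold lower on the terminal array.

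Uqcrc2, a core subunit of complex III, had 4004 in SD control, 2661 in dTGR, 4967 in losartan-treated dTGR and 2465 in terminal heart failure. It was the member lowest against SD control on the dTGR array after Ndufa4l2, 1.51-fold under it, and the member highest on the losartan-treated array against dTGR, 1.87-fold above. The losartan-treated array was also 1.24-fold above SD control. The log2 difference of losartan-treated from dTGR ran from 0.90 to 1.14 over the 4 scalings. Neither Sdha nor Uqcrc2 has a second probe set. Both are among the members whose share on this course, given above, depended on the scaling.

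Of the other members of complex III, Cyc1 and Uqcr11 were highest on the dTGR array as deposited, and Uqcrfs1 was highest on the losartan-treated array. Cyc1, cytochrome c1, which carries electrons to cytochrome c, had 6713, 9045, 8410 and 5166 in SD control, in dTGR, in losartan-treated dTGR and in terminal heart failure. It was 1.63-fold lower on the terminal array than on the losartan-treated array and lowest on the terminal array in all 4 scalings. Uqcrfs1, the Rieske iron-sulphur protein, had 8470, 9363, 9851 and 6712, 1.47-fold lower on the terminal array than on the losartan-treated array. Uqcr11, a small subunit, had 7175, 11166, 8277 and 7118, with only the dTGR array apart. The median log2 difference of the 4 members between dTGR and SD control was 0.29 as deposited and 0.05, -0.16 and -0.22 in the other scalings, while that between terminal and losartan-treated dTGR was -0.63 (-0.63 to -0.39).

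Complex IV, which reduces oxygen, was lower on the terminal than on the losartan-treated array for 10 of its 12 measured members (83.3%, against 58.2% of all genes). The median log2 difference was -0.38 (-0.38 to -0.11 over the 4 scalings). As deposited the dTGR array was highest for 7 of the 12, beside 17 of all 55 members (30.9%) and 27.4% of 2584 genes. The median log2 difference of complex IV between dTGR and SD control was 0.51 as deposited. It was 0.27, -0.07 and 0.03 with the same median, quantiles and cyclic loess. Cox6a2, the heart and muscle form, had 13186 in SD control, 27700 in dTGR, 17110 in losartan-treated dTGR and 14787 in terminal heart failure. The dTGR array stood alone, 2.1-fold above SD control and 1.87-fold above terminal. Its broadly expressed counterpart Cox6a1 had 4352, 5757, 4627 and 3958, again highest in dTGR, by 1.32-fold over SD control.

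The pair Cox8b and Cox8a ran the same way. Cox8b, the muscle form, had 12400, 21622, 17615 and 10256 in SD control, in dTGR, in losartan-treated dTGR and in terminal heart failure. It was 1.74-fold above SD control in dTGR and 2.11-fold lower in terminal than in dTGR. Its other probe set gave 9840, 12269, 10166 and 8275, with smaller gaps of 1.25-fold and 1.48-fold in these comparisons. Cox8a had 7342, 9926, 6907 and 5951, 1.35-fold above SD control in dTGR. These gaps depended on the scaling, and both muscle forms lie at the bright end of the array. The log2 difference of dTGR from SD control was 1.07 for Cox6a2 as deposited and 0.83, 0.07 and 0.22 with the same median, quantiles and cyclic loess, and 0.80 for Cox8b as deposited and 0.56, -0.18 and 0.02 in the same settings. For Cox6a1 it was 0.40, 0.16, 0.10 and 0.08, and for Cox8a 0.43, 0.19, -0.10 and -0.08.

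Cox4i1, the main form of the regulatory subunit, had 13023 in SD control, 20727 in dTGR, 16166 in losartan-treated dTGR and 11798 in terminal heart failure. The dTGR array was again on top, 1.59-fold above SD control, and the log2 difference turned from 0.67 to -0.27 with quantiles and -0.11 with cyclic loess. Cox4i2, the form linked to the lung and to low oxygen, had 373.5, 327.5, 539.8 and 370.5. Only the losartan-treated array stood out for Cox4i2, 1.45-fold above SD control and 1.65-fold above dTGR, and its log2 difference from dTGR stayed between 0.62 and 0.96 over the 4 scalings. No probe set was named for Cox7a1 or Cox7a2 alone, so this pair is not described.

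The remaining complex IV subunits differed in which array was lowest. Cox6b1, which joins the monomers of the enzyme, had 9216 in SD control, 14755 in dTGR, 12985 in losartan-treated dTGR and 6560 in terminal heart failure. By this probe set it was lowest on the terminal array. There it was 2.25-fold lower than in dTGR, 1.98-fold lower than in losartan-treated dTGR and 1.4-fold lower than in SD control. Its log2 difference from losartan-treated dTGR was -0.99 to -0.73 over the 4 scalings. The other probe set of Cox6b1 gave 2414, 3121, 3798 and 2445, with SD control lowest. By that probe set the terminal array lay 1.28-fold under dTGR and 1.55-fold under losartan-treated dTGR. Cox7b, a small subunit needed for assembly, had 3695, 2908, 4761 and 3408, lowest in dTGR and 1.64-fold above it under losartan. Cox6c, another small subunit, was lowest on the losartan-treated array, with 714.3, 1078, 481.4 and 571.4, 2.24-fold under dTGR and 1.48-fold under SD control.

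Cox5a, a subunit of the matrix side, was the only member highest on the terminal array as deposited. Its intensities were 44.2 in SD control, 78.4 in dTGR, 117.8 in losartan-treated dTGR and 187 in terminal heart failure, so that the terminal array was 4.23-fold and the losartan-treated array 2.66-fold above SD control. The single probe set of Cox5a reads near the floor, and its partner Cox5b had 7323, 7861, 7952 and 6401, with the terminal array lowest. A weak secondary probe set went the same way in 3 other genes, picked out after their values were seen: Ndufb8, with 40.3, 74.4, 100.2 and 288.5, Cox6c, with 35.9, 130.6, 83.9 and 176.3, and Ndufa6, with 127.2, 159.3, 94.8 and 406.6. The brighter probe sets of these genes did not, since Ndufb8 had 8980, 9776, 9514 and 7211 by its main probe set. A further weak probe set of Ndufb8 was lowest on the terminal array, with 92.8, 86.7, 127.8 and 45.5.

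The mitochondrially encoded core of complex IV was measured by 3 further genes, which are not members. COX1 had 12008 in SD control, 24479 in dTGR, 13289 in losartan-treated dTGR and 11357 in terminal heart failure. COX2 had 8551, 21390, 11172 and 7336, and COX3 had 11122, 27839, 14786 and 10196. All 3 were at least 2.04-fold higher on the dTGR array than in SD control as deposited, a log2 difference of 1.03 to 1.32 that shrank to 0.00 to 0.52 with quantiles and 0.23 to 0.62 with cyclic loess. As deposited all 3 were lower on the terminal array than on the losartan-treated array, with a median log2 difference of -0.54. With quantiles and cyclic loess COX1 was higher on the terminal array, by 0.15 and 0.09, and the value of COX3, the median of the 3, was -0.16 and -0.23.

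Complex V, the ATP synthase, was lower on the terminal than on the losartan-treated array for 8 of 10 members (80%, against 58.2% of all genes). The median log2 difference was -0.43 (-0.43 to -0.23 over the 4 scalings). Both large subunits of the catalytic head were among the 8. Atp5f1b, the beta subunit that carries the catalytic sites, had 10237 in SD control, 15440 in dTGR, 12336 in losartan-treated dTGR and 8220 in terminal heart failure, lowest in terminal in all 4 scalings and 1.5-fold under losartan-treated dTGR. Atp5f1a, the alpha subunit, had 4171, 4830, 5842 and 4324, where only the losartan-treated array stood clearly apart, 1.4-fold above SD control. Atp5f1c, the gamma subunit of the rotating shaft, had 5649, 4853, 7221 and 4933, low on both untreated disease arrays and 1.49-fold higher under losartan than in dTGR.

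The exception among the rotor subunits was Atp5f1d, the delta subunit, with 3829, 4747, 2294 and 2949 in SD control, in dTGR, in losartan-treated dTGR and in terminal heart failure. It was lowest under losartan in all 4 scalings, 2.07-fold under dTGR and 1.67-fold under SD control, and its other probe set gave 2264, 3010, 1931 and 1774, lowest in terminal instead. The peripheral stalk, which holds the head still, was mixed. Atp5pb had 2768, 3032, 3284 and 2070, and Atp5pf had 3914, 3613, 3532 and 2771, and both were lowest on the terminal array in all 4 scalings. Atp5pd had 3317, 2571, 3807 and 2840, lowest in dTGR in all 4 scalings. Atp5po, the subunit at the top of that stalk, had 9699, 11654, 12833 and 9202, with the losartan-treated array 1.32-fold above SD control and the terminal array 1.05-fold below it. The other probe set of Atp5po gave 4982, 4656, 5282 and 5641, highest on the terminal array.

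Atp5if1, the protein that blocks ATP hydrolysis by the synthase when the gradient collapses, ran apart from the subunits. Its intensities were 983.5 in SD control, 1540 in dTGR, 1147 in losartan-treated dTGR and 1291 in terminal heart failure. It was the only member above both SD control and losartan-treated dTGR on both untreated disease arrays (1.82%, against 13.6% of all genes), by 1.57-fold and 1.31-fold over SD control. Its log2 difference of dTGR from SD control was 0.41 to 0.80 over the 4 scalings. The probe set of next highest level gave 413, 888.6, 620.9 and 653.3, with SD control again lowest and dTGR highest.

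Several probe sets for a gene gave the only measure of error the files hold. Of the members, 28 had 2 or more probe sets. Over those above the floor, probe sets of the same gene differed in their log2 difference with a pooled SD of 0.59 for terminal against SD control and 0.46 for terminal against losartan-treated dTGR, beside 0.48 and 0.54 for all genes. A difference of 0.46 in 1 gene with 1 probe set is thus no larger than this SD in the latter comparison. In terminal against SD control the secondary probe sets had the sign of the main one in 29 of 40 cases (72.5%), beside 72.2% for all genes. In terminal against losartan-treated dTGR they had it in 27 of 41 cases (65.9%), beside 65.2%, and their median was -0.24 for the 20 of mean intensity 1000 or more and -0.04 for the 21 dimmer ones. Losartan-treated dTGR against SD control gave 24 of 40 (60%, beside 57.1%), with medians of -0.04 for 20 bright and -0.07 for 20 dimmer ones. Losartan-treated against dTGR gave 28 of 41 (68.3%, beside 58.9%), with medians of -0.31 and -0.26. These medians lay under 0, whereas those of the probe sets used for all 55 members were 0.27 and 0.09. Secondary probe sets exist only for genes with 2 or more, so these medians cover different sets of genes.

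**Figure D5:**
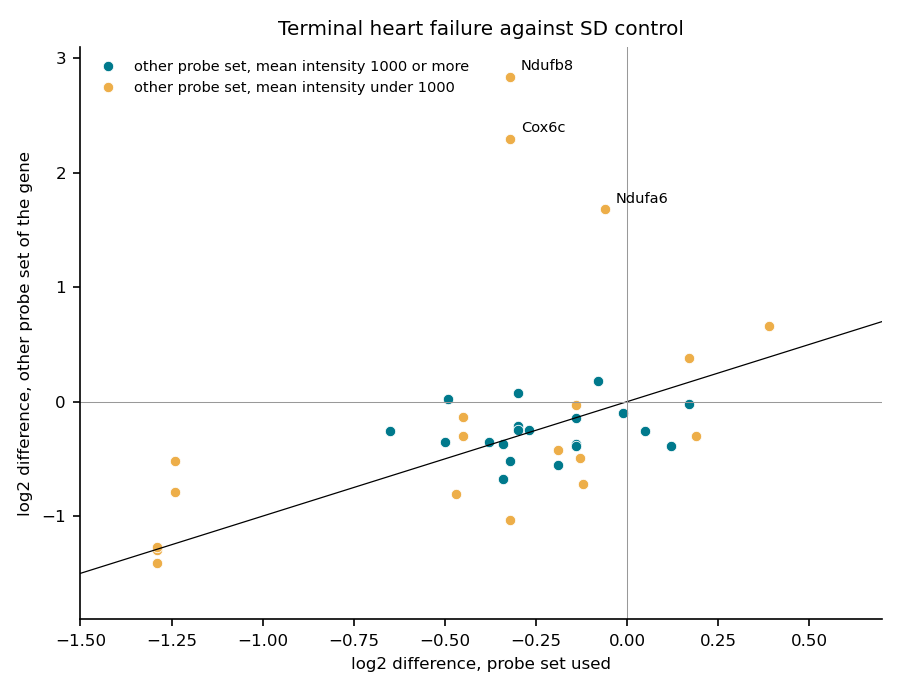
Log2 difference of terminal heart failure from SD control by the secondary probe sets of a member (vertical axis) against that by the probe set used (horizontal axis), with the line of equality and secondary probe sets coloured by whether their mean intensity reaches 1000. Most points lie under 0 on both axes, and the 3 named weak probe sets of Ndufb8, Cox6c and Ndufa6 lie above 1.5 on the vertical axis. Probe sets under the floor on any array are not drawn, among them one of Ndufs8 with a log2 difference of 1.87.

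Genes of related pathways were read from lists. Most code for mitochondrial proteins, but the lists also hold the cytosolic enzymes Mdh1, Got1, Ckm and Ckb. In the tricarboxylic acid cycle and its feeders, which supply the electrons, 13 of 13 genes above the floor were lower on the terminal array than in SD control, with a median log2 difference of -0.35 (60.1% of all genes were lower, with a median of -0.14), and 12 of 13 were lower than on the losartan-treated array, with a median of -0.53 (58.2% and -0.12 for all genes). Dlst, of the 2-oxoglutarate dehydrogenase complex, had 2691 in SD control, 3107 in dTGR, 3480 in losartan-treated dTGR and 1583 in terminal heart failure. Of 8 carriers of the inner membrane and the outer membrane channel, 8 were lower on the terminal array than in SD control, with a median of -0.45 beside the same 60.1% and -0.14, while the losartan-treated array had 3 higher and 5 lower than SD control. Slc25a4, the heart's ADP and ATP exchanger, had 11564, 20564, 16266 and 10348, and Slc25a3, the phosphate carrier, had 9090, 14967, 12341 and 7283.

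Assembly factors and regulators were mostly dim, and their counts against SD control stand beside 60.1% of all genes lower and a median of -0.14. The 4 assembly factors outside the members were all lower on the terminal array than in SD control, with a median log2 difference of -0.29, led by Tmem126b of complex I assembly, with 286.6, 169.9, 252.7 and 134.3. Among 9 regulators of mitochondrial biogenesis and shape, 7 were lower on the terminal array than in SD control, with a median of -0.26. Ppard, a nuclear receptor of fat oxidation genes, had 363.4, 351.3, 333.3 and 178.6, and only its terminal value stood apart. Of the uncoupling proteins and creatine kinases, 5 of 5 were lower on the terminal array, including Ucp3, with 139.7, 102.3, 63.3 and 64.2.

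Markers of cell types also differed between the arrays. The summed intensity of the 8 cardiomyocyte markers was 86313 in SD control, 171632 in dTGR, 115159 in losartan-treated dTGR and 79791 in terminal heart failure, and their median log2 difference was -0.54 in terminal against losartan-treated dTGR (-0.54 to -0.10 over the 4 scalings), beside -0.46 for the members. In losartan-treated dTGR against SD control it was 0.37 beside 0.27, and in terminal against SD control -0.17 beside -0.22. In the comparisons with the dTGR array the markers and the members lay further apart as deposited. The marker median was 0.91 beside 0.13 in dTGR against SD control and -1.04 beside -0.33 in terminal against dTGR. In losartan-treated against dTGR the signs were opposite, -0.52 beside 0.09. Of 6 macrophage markers listed, 4 were on the array and all 4 above the floor, with a summed intensity of 1266, 2051, 1391 and 4039 in the same order of arrays, highest on the terminal array. The sums of 6 fibroblast markers ran from 13355 to 15358, but most of the sum was Dcn, with 7670 in SD control and 11484 in terminal heart failure. The other 5 were lower on the terminal array than in SD control, Col3a1 by 4.02-fold, Lum by 3.18-fold and Col1a1 by 2.15-fold, and the median log2 difference of the 6 was -0.76. The sums of 4 endothelial markers ran from 1156 in SD control to 538 in terminal heart failure, where Cav1 was 3.95-fold lower and Kdr 2.03-fold lower, Pecam1 was 1.76-fold higher and Vwf lay under the floor on both arrays. In whole ventricle, fewer cardiomyocytes and less transcript per cardiomyocyte cannot be told apart, and the part of these shifts in the members' values was not tested.

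The order of the members' medians against SD control as deposited, terminal, SD control, dTGR and losartan-treated from low to high, was also the order of the 3' to 5' ratio of Gapdh. With the same median, quantiles or cyclic loess, dTGR and SD control change places in the former. The corresponding ratios of actin were 1.46, 2.07, 2.26 and 1.63 for SD control, dTGR, losartan-treated and terminal, which puts terminal over SD control. The part of RNA integrity in the result was not tested. Terminal and losartan-treated dTGR share a chip lot and a fluidics protocol and differ in run day, and run day and group cannot be told apart in this comparison.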

How the data were processed

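The authors deposited 1 intensity per probe set and array, linear and already on a common scale; the software behind it is not given in the sources used here. Per the file headers, the instrument settings (other values) gave chip lots, run days and fluidics protocols. Platform annotation from GEO named the 8799 probe sets: 59 controls, 1426 without a symbol and 308 with several (7 of these with a member) were left out. All 56 members matched the RefSeq gene table of GRCr8 and 0 symbols differed. Arrays were brought to a common trimmed mean (2% of probe sets cut at each end), a floor of 26.0 (the 40th percentile over the arrays together) replaced lower values, and differences were taken as log2. A comparison used the genes that exceeded the floor on either array. Values on every array were given for members at least 2-fold apart in any comparison, the extremes of 3 comparisons, the isoform pairs, complex II and cytochrome c1; the further members shown were chosen after their values were seen. The members and lists were chosen with earlier results of these data known. Other scalings, floors and probe set rules were run as alternatives, and the steps were checked on simulated data. Python 3.11.15, NumPy 2.4.6, pandas 2.3.3, SciPy 1.17.1, statsmodels 0.14.6 and matplotlib 3.10.9 were used.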

Additional observations from a re-analysis of the deposited data

How the results depend on the processing

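With 1 array per group no replicate could be left out, and no paired analysis was possible because there is 1 array per group. Across 10 alternatives each, the members' median log2 differences kept their sign except in dTGR against SD control, and ranged from -0.28 to -0.17 (terminal against SD control), -0.34 to -0.04 (terminal against dTGR), 0.08 to 0.33 (losartan-treated against dTGR), 0.13 to 0.27 (losartan-treated against SD control) and -0.46 to -0.30 (terminal against losartan-treated). The dTGR median against SD control turned from 0.13 to -0.11 with the same median, -0.10 with quantiles and -0.08 with cyclic loess. Scaling to the same median also moved that of all genes, from 0.03 to -0.19. The cause was not tested. The median of terminal against dTGR moved to -0.04 with the same median and -0.08 with cyclic loess, and that of losartan-treated against dTGR to 0.33 with the same median.

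For dTGR against SD control, complex III turned to -0.16 and -0.22 and complex V to -0.10 and -0.11 with quantiles and cyclic loess, complex IV to -0.07 with quantiles, the biogenesis regulators to -0.03 with the same median, the uncoupling proteins and creatine kinases to -0.08 and -0.10 with quantiles and cyclic loess, and the cardiomyocyte markers to -0.07 with quantiles. For terminal against dTGR, complexes I and II turned to 0.04 and 0.10 with the same median, and complexes III and V to 0.01 and 0.02 with cyclic loess. For losartan-treated against dTGR, complex IV turned to 0.25 and 0.19 and the cardiomyocyte markers to 0.18 and 0.06 with quantiles and cyclic loess, and the regulators to 0.08 with the same median. For losartan-treated against SD control, the tricarboxylic acid cycle turned to -0.01 with quantiles, and the uncoupling list to -0.17 and -0.12 with quantiles and cyclic loess.

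Counts past 2-fold, all 4 or fewer, moved by 1 to 3 genes. Higher in dTGR against SD control became 0 in the 3 other scalings, and lower became 1 with the same median and with no floor. Lower in terminal against SD control became 1 with the median of all probe sets and with structural subunits alone. In terminal against dTGR, higher became 2 with no floor, and lower became 1 with the same median and 2 with cyclic loess and with the median of all probe sets. In losartan-treated against dTGR, higher became 1 with the same median and with no floor, and lower became 0 with the same median and with the median of all probe sets and 1 with quantiles and with cyclic loess. In losartan-treated against SD control, higher became 0 with the floor at the 60th percentile and lower became 1 with the median of all probe sets. In terminal against losartan-treated, higher became 1 with the median of all probe sets. Array ranks, counts under all 4 scalings together and the split by brightness were added after the data had been seen. The number of arrays limits the precision of all values.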
